A study of Mus musculus with 6 samples.

Results

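Inhibitory checkpoint receptors and ligands are surface proteins that restrain activated lymphocytes. Transcripts of 10 such genes were looked up by symbol in the deposited gene table: Pdcd1, Ctla4, Tigit, Lag3, Havcr2, Cd274, Pdcd1lg2, Klrg1, Btla and Vsir. Of these, 9 were among the 18478 genes of the table, and Lag3 was not analysed here. The cells were group 2 innate lymphoid cells (ILC2s), which reside in tissue, lack antigen receptors and make type 2 cytokines, sorted from mouse lung. The CB2 KO group had 3 libraries from mice lacking cannabinoid receptor 2 (CB2, encoded by Cnr2), and the WT group had 3 libraries from mice with the receptor. All 6 samples came from 6-week-old animals of the BALB/c strain given recombinant IL-33, an alarmin that activates ILC2s, through the nose in 3 doses of 1 µg. Sorted cells of both groups then spent 24 h in culture with 10 ng/mL each of the cytokines IL-2 and IL-7. The comparison is CB2 KO against WT, and it addresses the role of CB2 in ILC2 gene expression. Whether each replicate is its own mouse is not in the labels, so the spread behind the p-values may be technical.

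Many checkpoint receptors bind a ligand on a neighbouring cell, and several recruit phosphatases that dampen signals from activating receptors. PD-1, encoded by Pdcd1, binds PD-L1 (Cd274) and PD-L2 (Pdcd1lg2). CTLA-4 competes with CD28 for its ligands, TIGIT competes with CD226, BTLA binds the TNF receptor family member HVEM, TIM-3 (Havcr2) binds galectin-9 among others, and KLRG1 binds cadherins. VISTA, encoded by Vsir, acts both as a ligand and as a receptor. In ILC2s, KLRG1 is a widely used marker of mature cells, and PD-1 is induced by activation and limits proliferation and cytokine output.

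Levels are given as CPM (estimated counts scaled to library size) with TMM factors, an edgeR method that corrects for differences in RNA composition. The libraries held 17141698 to 21621008 estimated counts in all. A count of 0 allows up to 3 counts, or 0.14 to 0.174 CPM in these libraries, a limit that covers counting error only. Cnr2, the targeted gene, was at 9.24, 1.60 and 3.84 CPM in CB2 KO replicates 1 to 3, against 9.32, 17.4 and 15.8 CPM in WT replicates 1 to 3. The library labelled as CB2 KO replicate 1 was thus level with the lowest WT library for Cnr2, and on the first principal component of all tested genes, with 37.6% of the variance, it stood apart from the other 5. The log2 fold change of Cnr2, CB2 KO over WT, was -1.52 (SE 0.56; adjusted p = 0.514 in edgeR's test) with that library and -2.42 without it. Results on the checkpoint genes are given both ways. All 12 listed ILC2 markers were detected in every library, and they summed to 13020 to 15340 CPM in CB2 KO and 12390 to 13890 CPM in WT, mostly from Il5. The sort yielded bulk RNA, so fewer cells of a type and less RNA per cell cannot be told apart.

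Among the receptors, 4 encode the tyrosine motifs that recruit phosphatases, a feature through which such receptors inhibit. The coding stretches below come from the GENCODE release M21 transcripts (GRCm38) and are shown because they tell apart the measured receptors with and without such a motif. The letters searched for were an immunoreceptor tyrosine-based inhibitory motif (ITIM: isoleucine, valine, leucine or serine, any residue, tyrosine, any pair of residues, then isoleucine, leucine or valine) and the related switch motif (ITSM), which starts with threonine. Capitals mark the tyrosine codon, and codons are counted from the start codon.
Pdcd1 ITIM, codon 225 of 288: gtggccTATgaggagctg
Pdcd1 ITSM, codon 248 of 288: acagaaTATgccaccatt
Btla ITIM, codon 274 of 306: attgttTATgcttctttg
Btla ITSM, codon 299 of 306: acagaaTATgcatccatt
Tigit ITIM, codon 228 of 241: ctgagcTACagaagccta
Klrg1 ITIM, codon 7 of 188: tctatcTATtcaacacta
The stretches of Pdcd1 lie at chr1:94039488-94039505 and chr1:94039419-94039436 on the minus strand, those of Btla at chr16:45250490-45250507 and chr16:45250565-45250582 on the plus strand, that of Tigit at chr16:43649034-43649051 and that of Klrg1 at chr6:122282782-122282799, both on the minus strand. The ITSM stretches of Pdcd1 and Btla differed at 2 of 18 bases. In Pdcd1, Btla and Tigit the motifs sit near the carboxyl end, and in Klrg1, whose amino end is inside the cell, near the start. Single further matches at codon 183 of Btla and codon 56 of Klrg1 lie away from those ends. A single coding transcript was searched for each gene, and those of Ctla4, Havcr2, Cd274, Pdcd1lg2 and Vsir held no match to either pattern.

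None of the tested checkpoint genes differed between CB2 KO and WT past the threshold. The filter on low counts left 8 of the 9, with Ctla4 removed, and 0 of 8 passed the quasi-likelihood test of edgeR at 0.05 after Benjamini-Hochberg adjustment. Over all 14084 tested genes, 0.107% passed, 0.0426% higher and 0.0639% lower in CB2 KO. By unadjusted p under 0.05 in the same test, 1 of the 8 was lower (Klrg1) and 0 were higher, against 4.27% of all tested genes lower and 8.6% in either direction. DESeq2, which called 2.58% of the genes it tested, also called 0 of the 8, and so did limma-voom. The log2 fold changes of the 8 were positive for 4 and negative for 4, and their median was -0.14, beside 7037 positive, 7047 negative and a median of -0.00 over all tested genes. Without the library labelled as CB2 KO replicate 1 the median of the 8 was -0.24, with 0 called in edgeR's test and 1, Klrg1, again under an unadjusted p of 0.05.

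Pdcd1, the gene of PD-1 (chromosome 1, 94038305 to 94052553, minus strand, mm10), was the checkpoint gene with the most counts. It was at 293, 206 and 234 CPM in CB2 KO replicates 1 to 3, against 191, 213 and 251 CPM in WT replicates 1 to 3, from 4032 to 5897 counts per library. The groups overlapped, and the highest value was in the library labelled as CB2 KO replicate 1. Pdcd1 averaged 244 ± 44.4 CPM in CB2 KO and 218 ± 30.8 CPM in WT (mean ± SD, n = 3 each). The log2 fold change was 0.17 (SE 0.16, 95% interval -0.21 to 0.54; adjusted p = 0.828, edgeR). On the linear scale that interval runs from 0.867-fold to 1.46-fold. Without the library labelled as CB2 KO replicate 1 the log2 fold change was 0.01 (SE 0.14).

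Klrg1, which encodes the lectin-like receptor KLRG1 (chromosome 6, 122270596 to 122282882, minus strand), had the largest separation between the groups relative to its error. It was at 107, 102 and 134 CPM in CB2 KO replicates 1 to 3, against 140, 167 and 161 CPM in WT replicates 1 to 3. Every CB2 KO library was below every WT library, which held for 7.18% of all tested genes. No checkpoint gene that was tested had every CB2 KO library above every WT library, which held for 6.88% of all tested genes. The means were 114 ± 17.1 CPM in CB2 KO and 156 ± 13.8 CPM in WT (SD, n = 3 each). The log2 fold change was -0.46 (SE 0.14, 95% interval -0.78 to -0.13), and the adjusted p of 0.45 in edgeR's test did not pass. DESeq2 gave an adjusted p of 0.0526, and over all 14 alternatives the adjusted p of Klrg1 ran from 0.0526 to 0.69. By exact permutation of its CPM, two-sided, Klrg1 had p = 0.1, the lowest value possible with groups of 3. Without the library labelled as CB2 KO replicate 1 the log2 fold change was -0.41 (SE 0.16), so the size of the difference did not rest on that library. Of the 12 ILC2 markers, 5 were also lower in every CB2 KO library than in every WT library (Gata3, Il2ra, Il7r, Thy1 and Nmur1) and 1, Il5, was higher in every one. Nmur1, the gene of the neuromedin U receptor, was at 113, 127 and 111 CPM in CB2 KO replicates 1 to 3, against 184, 177 and 199.9 CPM in WT replicates 1 to 3. DESeq2 called 1 of the 12 higher and 1 lower, and edgeR's test called 0. Their part in the level of Klrg1 was not tested.

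Pdcd1 and Klrg1 therefore had fitted differences of opposite sign, and their balance was compared per length in each library. The level of Pdcd1 per kilobase of exon divided by that of Klrg1 was 2.01, 1.47 and 1.28 in CB2 KO replicates 1 to 3, against 0.994, 0.936 and 1.14 in WT replicates 1 to 3. All CB2 KO ratios lay above all WT ratios. The ratio was chosen after the values of both genes had been seen, and since the groups of Klrg1 alone do not overlap, it is no separate result.

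**Figure D1:**
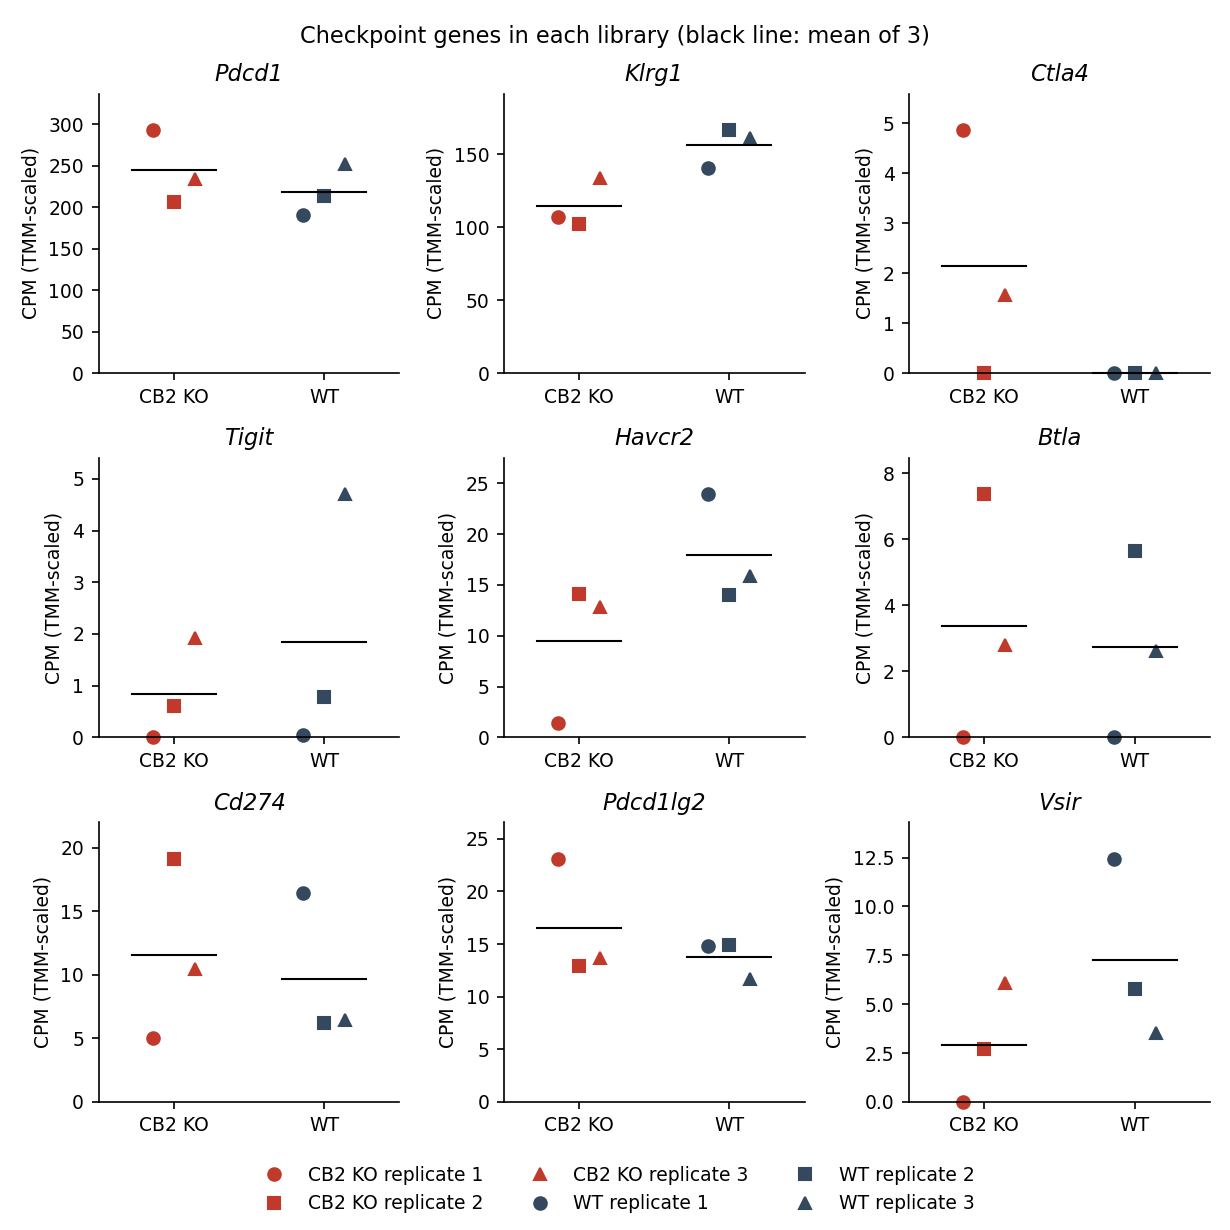
Level of each measured checkpoint gene in CPM (TMM-scaled, vertical axes from 0) in the 3 CB2 KO and 3 WT libraries; each point is a library and the black line the mean of 3. Klrg1 is the gene whose groups do not overlap, with 102 to 134 CPM in CB2 KO and 140 to 167 CPM in WT, and the library labelled as CB2 KO replicate 1 is at an extreme for most of the others.

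The ligands of PD-1 are encoded by neighbouring genes on chromosome 19, and both were far below Pdcd1 in these cells. Cd274, the gene of PD-L1 (29367455 to 29388095, plus strand), was at 5.07, 19.2 and 10.5 CPM in CB2 KO replicates 1 to 3, against 16.5, 6.19 and 6.44 CPM in WT replicates 1 to 3. Both groups spanned low and high libraries and overlapped. The means were 11.6 ± 7.10 CPM in CB2 KO and 9.70 ± 5.86 CPM in WT (SD, n = 3 each), with a log2 fold change of 0.24 (SE 0.60) and an adjusted p of 0.942 in edgeR's test. It was 0.62 without the library labelled as CB2 KO replicate 1, and the sign turned to -0.39 without CB2 KO replicate 2 and to -0.02 without WT replicate 2. Cd274 shares 511 exonic bases with an antisense gene, and the sources used here do not give the strand setting of the counting, so its counts are uncertain.

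Pdcd1lg2, the gene of PD-L2 (29410919 to 29471161, plus strand), lies 22.8 kb beyond Cd274. It was at 23.1, 12.9 and 13.7 CPM in CB2 KO replicates 1 to 3, against 14.8, 14.9 and 11.7 CPM in WT replicates 1 to 3. The library labelled as CB2 KO replicate 1 stood above the other 5, which lay close together. Pdcd1lg2 averaged 16.6 ± 5.67 CPM in CB2 KO and 13.8 ± 1.82 CPM in WT (SD, n = 3 each), a log2 fold change of 0.26 (SE 0.34) with an adjusted p of 0.883 in edgeR's test. Without that library it was -0.06. The 2 ligand genes were not ordered alike over the libraries: the library labelled as CB2 KO replicate 1 was the highest for Pdcd1lg2 and the lowest for Cd274. Per kilobase of exon, the level of Pdcd1lg2 over that of Cd274 was 8.42, 1.25 and 2.40 in CB2 KO replicates 1 to 3 and 1.66, 4.44 and 3.34 in WT replicates 1 to 3, so Pdcd1lg2 was above Cd274 in all 6.

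The start regions of the PD-1 axis are shown because these 3 genes span the highest checkpoint level measured and a pair of neighbours with unlike library patterns. RefSeq promoter sequences (GRCm38.p6, 250 bases before to 50 after the start) matched 8 of the 9 measured genes by symbol. Capitals mark matches, on either strand, to the motifs GATAA (GATA factors), TTCNNNGAA (STAT factors), TGANTCA (AP-1), TGTGGT (RUNX factors) and GGAAA (NFAT core).
Pdcd1, chr1:94052504-94052803, minus strand: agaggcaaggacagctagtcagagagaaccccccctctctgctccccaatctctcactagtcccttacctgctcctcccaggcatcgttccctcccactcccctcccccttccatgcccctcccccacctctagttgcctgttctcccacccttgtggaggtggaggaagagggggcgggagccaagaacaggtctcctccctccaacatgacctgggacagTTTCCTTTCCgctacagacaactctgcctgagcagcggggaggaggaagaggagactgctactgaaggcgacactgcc
Cd274, chr19:29367188-29367487, plus strand: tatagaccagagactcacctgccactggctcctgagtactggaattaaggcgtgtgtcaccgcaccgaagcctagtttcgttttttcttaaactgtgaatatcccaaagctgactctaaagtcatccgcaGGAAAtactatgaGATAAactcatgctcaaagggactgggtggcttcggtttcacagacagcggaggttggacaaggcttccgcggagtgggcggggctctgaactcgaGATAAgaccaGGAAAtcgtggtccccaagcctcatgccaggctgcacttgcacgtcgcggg
Pdcd1lg2, chr19:29410669-29410968, plus strand: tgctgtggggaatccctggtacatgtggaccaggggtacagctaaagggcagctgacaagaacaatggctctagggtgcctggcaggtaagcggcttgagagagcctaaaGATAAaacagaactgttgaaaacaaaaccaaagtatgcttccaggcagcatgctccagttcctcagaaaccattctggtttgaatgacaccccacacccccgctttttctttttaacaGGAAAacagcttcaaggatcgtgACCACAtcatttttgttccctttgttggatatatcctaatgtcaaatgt
The Pdcd1 region held 2 matches to GGAAA, on the reverse strand and side by side, and no match to the other motifs. The Cd274 region held 2 matches to the GATA motif and 2 to the NFAT motif, and the Pdcd1lg2 region held 1 match each to the GATA, NFAT and RUNX motifs. Of all 32851 promoter regions of this length, 25.4% held GATAA, 61.3% GGAAA, 16.8% TGTGGT, 8.3% TTCNNNGAA and 7.8% TGANTCA. GC content was 60.7% for Pdcd1, 52.7% for Cd274 and 46.0% for Pdcd1lg2, beside a median of 52.7% over all regions. No factor binding was measured, so a match describes the letters only.

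Havcr2, the gene of TIM-3 (chromosome 11, 46454935 to 46481255, plus strand), was at 1.44, 14.1 and 12.8 CPM in CB2 KO replicates 1 to 3, against 23.9, 13.996 and 15.9 CPM in WT replicates 1 to 3. The groups overlapped narrowly, with CB2 KO replicate 2 just above the lowest WT library and the library labelled as CB2 KO replicate 1, with 29 counts, far below the rest. The means were 9.47 ± 6.98 CPM in CB2 KO and 17.9 ± 5.26 CPM in WT (SD, n = 3 each), a log2 fold change of -0.95 (SE 0.56) with an adjusted p of 0.692 in edgeR's test. Without the library labelled as CB2 KO replicate 1 it was -0.42 (SE 0.36).

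Vsir, the gene of VISTA (chromosome 10, 60346851 to 60372684, plus strand), was at 0, 2.69 and 6.10 CPM in CB2 KO replicates 1 to 3, against 12.4, 5.75 and 3.51 CPM in WT replicates 1 to 3. The groups overlapped, with the lowest value in the library labelled as CB2 KO replicate 1 and the highest in WT replicate 1. Vsir averaged 2.93 ± 3.06 CPM in CB2 KO and 7.23 ± 4.64 CPM in WT (SD, n = 3 each). The log2 fold change of -1.43 (SE 0.85) did not pass (adjusted p = 0.692, edgeR), and it was -0.82 (SE 0.71) without the library labelled as CB2 KO replicate 1 and -0.77 (SE 0.96) without WT replicate 1.

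The remaining receptors each had at least 1 library at 0. Btla (chromosome 16, 45224315 to 45257670, plus strand) was at 0, 7.36 and 2.79 CPM in CB2 KO replicates 1 to 3, against 0, 5.66 and 2.60 CPM in WT replicates 1 to 3. Each group held 1 library at 0, and the ranges nearly coincided. The log2 fold change of Btla was 0.36 (SE 1.12, 95% interval -2.23 to 2.95; adjusted p = 0.958 in edgeR's test). It was -1.08 without CB2 KO replicate 2, -0.29 without WT replicate 1 and 0.97 without the library labelled as CB2 KO replicate 1.

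Tigit (chromosome 16, 43648867 to 43664146, minus strand) was at 0, 0.613 and 1.92 CPM in CB2 KO replicates 1 to 3, against 0.0466, 0.780 and 4.70 CPM in WT replicates 1 to 3. The WT value of 0.0466 CPM was a single count, and 83 of the 146 Tigit counts came from WT replicate 3. Its log2 fold change of -1.09 (SE 1.40, 95% interval -4.13 to 1.95) did not pass either (adjusted p = 0.878, edgeR). It turned to 0.95 without WT replicate 3 and was -0.48 without the library labelled as CB2 KO replicate 1.

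Ctla4 (chromosome 1, 60887000 to 60915832, plus strand) had 98, 0 and 27 counts in CB2 KO replicates 1 to 3, against 0 counts in each of the 3 WT libraries. That corresponds to 4.87, 0 and 1.57 CPM in CB2 KO replicates 1 to 3. Ctla4 had counts in 2 libraries, too few for the filter, and was not tested. The CB2 KO libraries were not alike, since replicate 2 was at 0 as all WT libraries were. With the counts of each group pooled, the CB2 KO level was 42.5-fold that of a floor of 3 counts over all WT libraries together. Most of it came from the library labelled as CB2 KO replicate 1. That value covers counting error only, not the spread between libraries, so it sets no lower bound on the difference between the groups. By exact two-sided permutation of its CPM, Ctla4 had p = 0.4.

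The order of the levels was set per kilobase of exon, since transcripts of different length collect different numbers of reads. The median over the 6 libraries was 116 CPM per kb for Pdcd1 and 97.1 CPM per kb for Klrg1, above 95.6% and 94.7% of the 13760 tested genes with a length. These 2 receptors overlapped each other, with Pdcd1 above Klrg1 in 4 of 6 libraries, and both were clear of the rest in all 6. Pdcd1lg2 followed with a median of 7.25 CPM per kb, then Havcr2 with 5.16 and Cd274 with 2.34 CPM per kb, each overlapping its neighbour. Vsir, Btla and Tigit, with medians of 0.924, 0.794 and 0.758 CPM per kb, could not be ordered against each other, and Ctla4 had a median of 0. Counted in CPM, Pdcd1 and Klrg1 together made up 84.4 to 92.1% of the summed level of the 9 genes in CB2 KO libraries and 83.0 to 90.2% in WT libraries. That sum was 406 ± 36.0 CPM in CB2 KO and 428 ± 29.4 CPM in WT (SD, n = 3 each), with overlapping groups.

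**Figure D2:**
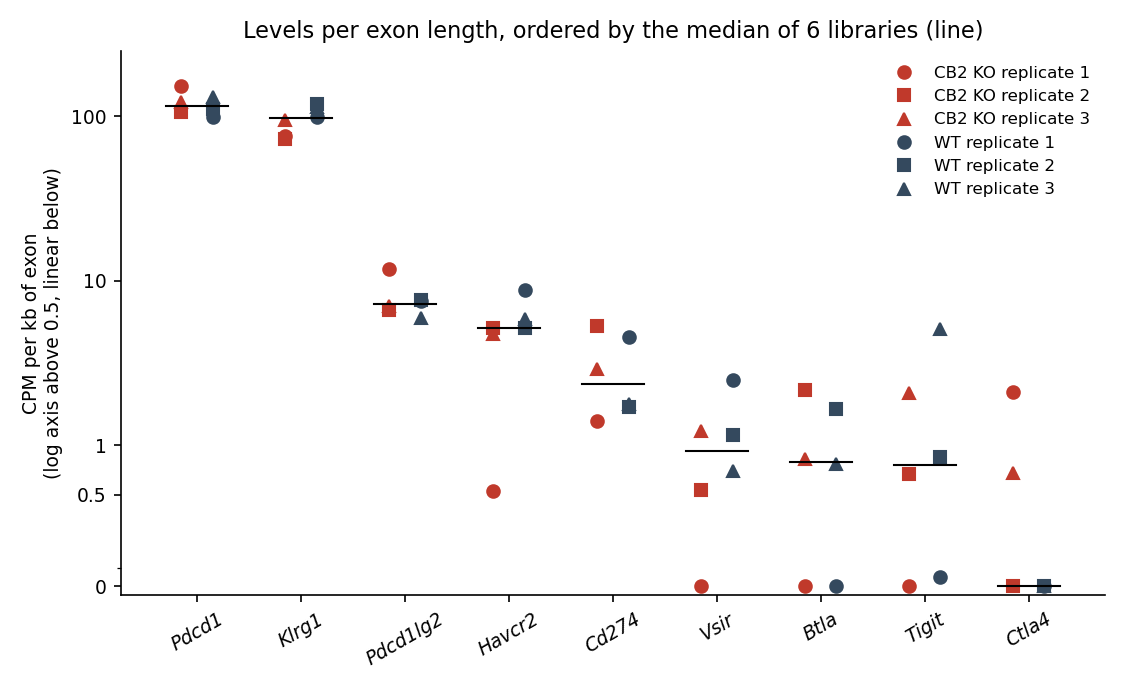
Level per kilobase of exon of the 9 measured checkpoint genes, ordered by the median of the 6 libraries (black line), on an axis that is logarithmic above 0.5 and linear below; CB2 KO points stand left of WT points. Pdcd1 and Klrg1 lie near 100 CPM per kb in every library, Pdcd1lg2 at 5.95 to 11.8, and Vsir, Btla, Tigit and Ctla4 reach 0 or nearly 0 in at least 1 library.

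The spread over libraries was set beside that of the genes whose mean CPM lay within 1.5-fold of each checkpoint gene. The coefficient of variation over the 6 libraries was 16.0% for Pdcd1 and 19.8% for Klrg1, higher than that of 81.7% and 82.5% of genes of like mean. It was taken over both groups together, so a difference between CB2 KO and WT, as for Klrg1, is part of it. It was 52.7% for Havcr2, 55.6% for Cd274 and 83.3% for Vsir, higher than 78.3%, 72.8% and 81.6% of theirs. Pdcd1lg2, at 26.8%, varied less than most genes of its level, with 30.6% of them lower. At the lowest levels, any library at 0 was common, in 58.7% of genes with a mean like that of Ctla4 and 41.0% for Btla. As many as theirs were less common: at least 4 of 6, as for Ctla4, in 15.2% of genes of like mean, and at least 2, as for Btla, in 17.2%. The coefficient of variation of Ctla4, 183%, was higher than that of 90.7% of genes of like mean.

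The library labelled as CB2 KO replicate 1 was the highest of the 6 for Pdcd1, Pdcd1lg2 and Ctla4 and the lowest for Havcr2, Cd274, Vsir and Tigit. Of all tested genes, 23.1% were highest and 24.4% lowest in that library. For Btla it was tied at 0 with WT replicate 1, and for Klrg1 it lay between the other CB2 KO libraries.

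**Figure D3:**
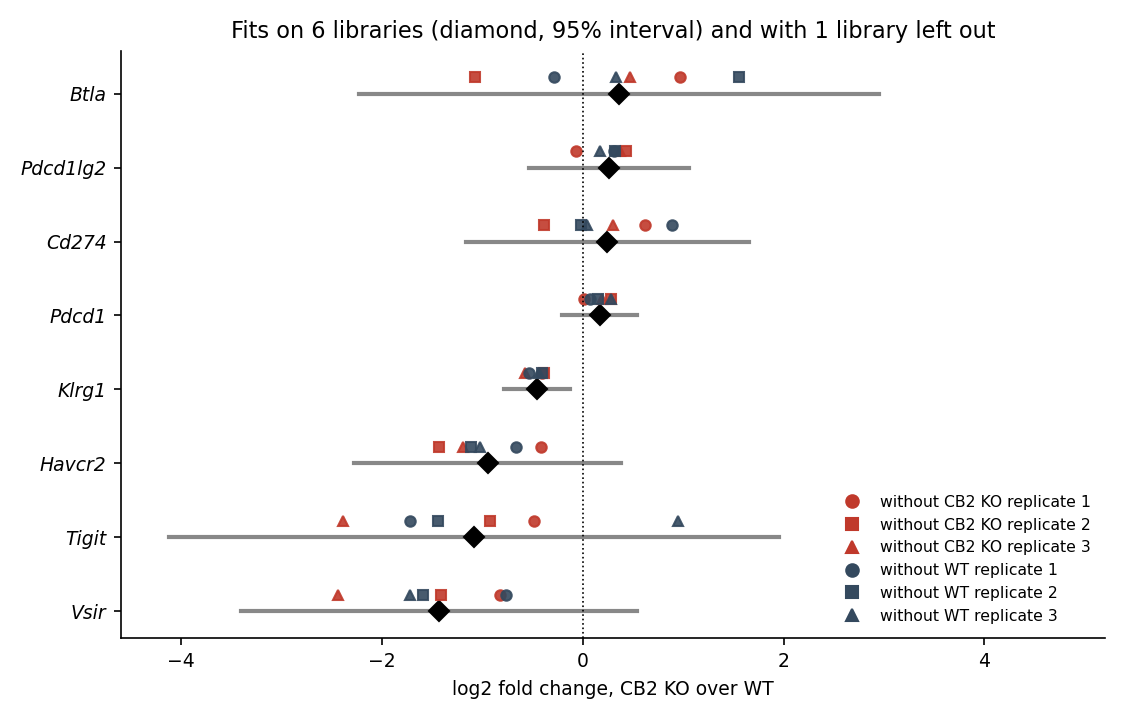
Log2 fold change of CB2 KO over WT for the 8 tested checkpoint genes from edgeR on all 6 libraries (black diamond, grey bar 95% interval) and with each library left out in turn (coloured symbols). All fits of Klrg1 lie between -0.58 and -0.38 and all fits of Pdcd1 between 0.01 and 0.28, while those of Btla run from -1.08 to 1.56 and those of Tigit from -2.39 to 0.95.

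For the 2 most abundant genes, the genes with the most similar pattern over the 6 libraries were found by the root mean square difference of centred log2 CPM among 9240 other genes with a mean of at least 10 CPM. Closest to Pdcd1 were Usp12, which encodes a deubiquitinase, Taf6, a subunit of the general transcription factor TFIID, and Med25, a Mediator subunit, with differences of 0.05, 0.05 and 0.06 on the log2 scale. Like Pdcd1, each was highest in the library labelled as CB2 KO replicate 1. Closest to Klrg1 were Acsl5, which encodes a long-chain acyl-CoA synthetase, Unc119, a trafficking chaperone of lipid-modified proteins, and Suz12, a Polycomb repressive complex subunit, at 0.06, 0.07 and 0.07. Acsl5 was at 228, 214 and 285 CPM in CB2 KO replicates 1 to 3, against 292, 327 and 312 CPM in WT replicates 1 to 3, so its groups did not overlap either. All these genes were chosen for their likeness to Pdcd1 or Klrg1, so the shared features follow from the choice and are no separate result. The median difference to all compared genes was 0.33 for Pdcd1 and 0.37 for Klrg1.

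Genes around the checkpoint receptors were followed through 5 lists of 115 different genes, of which 88 were tested. Of the 88, 0 passed edgeR's test over all genes, and 9 were higher and 10 lower at an unadjusted p under 0.05. DESeq2 called 8 of the 88, beside 2.58% of all the genes it tested. Both the 9 and the 8 include Egr3, which passed the filter only through the CB2 KO libraries. The 9 also include Nectin2 (0.547 ± 0.948 CPM in WT) and Egr2 (1.03 ± 1.18 CPM in WT). The 10 include Lair1 (0.821 ± 0.912 CPM in CB2 KO). Each of these passed the filter only with libraries of the group where it was higher. The counts at an unadjusted p under 0.05, and their share, thus rest in part on such genes. Those at an unadjusted p under 0.05 were 21.6% of the 88, beside 8.6% of all tested genes, in lists chosen with earlier results of these data known. Of 15 tested genes in the list of other inhibitory receptors, 8 log2 fold changes were positive and 7 negative. Their median of 0.15 was -0.08 without the library labelled as CB2 KO replicate 1. The list also holds Nt5e, which encodes an enzyme, and Tnfrsf14, the gene of HVEM, which is counted again among the activating receptors below. Tgfbr2, a receptor subunit for TGF-beta, was at 251, 254 and 237 CPM in CB2 KO replicates 1 to 3, against 306, 326 and 365 CPM in WT replicates 1 to 3. Its groups did not overlap, and its log2 fold change was -0.42 (SE 0.09; adjusted p = 0.267 in edgeR's test and 0.000212 in DESeq2's). Il10ra, a subunit of the IL-10 receptor, was at 255, 355 and 245 CPM in CB2 KO, against 184, 204 and 169 CPM in WT. That was a log2 fold change of 0.62 (SE 0.16; adjusted p = 0.366 in edgeR's test and 0.00442 in DESeq2's).

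Of 13 tested genes in the list of ligands of inhibitory receptors, 6 were positive and 7 negative. Their median of -0.09 was 0.01 without the library labelled as CB2 KO replicate 1. The list also holds Icosl, the gene of the ligand of the costimulator ICOS. Hmgb1, a chromatin protein that TIM-3 can bind outside the cell, was at 357, 354 and 366 CPM in CB2 KO, against 447, 453 and 429 CPM in WT. Its log2 fold change was -0.30 (SE 0.06; adjusted p = 0.23 in edgeR's test and 9.35e-07 in DESeq2's). Lgals3, the gene of galectin-3, was at 276, 267 and 295 CPM in CB2 KO, against 235, 227 and 203 CPM in WT, a log2 fold change of 0.33 (SE 0.09; adjusted p = 0.383 in edgeR's test and 0.00581 in DESeq2's). Lgals9, the gene of the TIM-3 ligand galectin-9, was at 200.4 ± 23.4 CPM in CB2 KO and 213 ± 21.03 CPM in WT (SD, n = 3 each).

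The 5 tested activating receptors that share ligands with checkpoint receptors, or are paired with them, had a median of 0.31, with 3 positive and 2 negative; without the library labelled as CB2 KO replicate 1 it was -0.09. The costimulator gene Icos was at 465, 428 and 400.3 CPM in CB2 KO, against 610.0, 554 and 493 CPM in WT, without overlap (log2 fold change -0.36, SE 0.10; adjusted p = 0.383 in edgeR's test and 0.0191 in DESeq2's). Cd226, whose product competes with TIGIT, was at 90.4, 116 and 112 CPM in CB2 KO and 124, 124 and 117 CPM in WT (log2 fold change -0.20, SE 0.13; adjusted p = 0.72 in edgeR's test).

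Among 31 tested genes of inhibitory signalling, 10 were positive and 21 negative, with a median of -0.05 that was -0.11 without the library labelled as CB2 KO replicate 1. Sit1, an adaptor that recruits the phosphatase SHP-2, was at 26.3, 22.4 and 17.03 CPM in CB2 KO, against 9.36, 11.3 and 6.79 CPM in WT. The groups did not overlap, and the log2 fold change was 1.26 (SE 0.32; adjusted p = 0.358 in edgeR's test and 0.00603 in DESeq2's). The adaptor gene Grb2 was at 228, 199.6 and 242 CPM in CB2 KO and 260.0, 261 and 278 CPM in WT (log2 fold change -0.26, SE 0.09; adjusted p = 0.502 in edgeR's test). Phosphatases that motifs like those printed above can recruit were picked after their values had been seen. Ptpn6 (SHP-1) was at 53.9 ± 10.8 CPM in CB2 KO and 67.1 ± 14.6 CPM in WT. Ptpn11 (SHP-2) was at 49.45 ± 11.6 CPM in CB2 KO and 49.0 ± 8.90 CPM in WT. Inpp5d (SHIP-1) was at 279 ± 19.1 CPM in CB2 KO and 287 ± 6.98 CPM in WT (SD, n = 3 each). Which of them each receptor recruits was not measured.

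Of 25 tested genes known to regulate checkpoint genes, mainly transcription factors studied in T cells, 13 were positive and 12 negative, with a median of 0.01 that was -0.04 without the library labelled as CB2 KO replicate 1. Prdm1, which encodes the repressor BLIMP-1, was at 48.4, 43.9 and 65.2 CPM in CB2 KO, against 75.7, 78.3 and 86.6 CPM in WT. The groups did not overlap (log2 fold change -0.62, SE 0.18; adjusted p = 0.444 in edgeR's test and 0.0445 in DESeq2's). Egr3, an activation-induced transcription factor gene, was at 3.83, 0.661 and 1.69 CPM in CB2 KO and at 0 in each WT library. From 120 counts in all, its log2 fold change in edgeR was 8.34 (SE 2.49), a size that WT values of 0 leave poorly set. The adjusted p of Egr3 was 0.452 in edgeR's test and 0.000396 in DESeq2's. Egr3 passed the filter only through the group in which it was higher, so these p-values cannot decide whether it differed.

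Several checkpoint genes are also expressed by T cells and by macrophages and dendritic cells, whose markers were measured in the same libraries. Of 10 T cell markers, 8 were found, and their summed level was 204 to 223 CPM in CB2 KO and 193 to 204 CPM in WT. Most of it came from the receptor constant genes Trbc1 and Trbc2. Over the 6 tested T cell markers the median log2 fold change was 0.68. Of these, 2 were higher in every CB2 KO library than in every WT library, which held for 6.88% of all tested genes. Trbc1 was at 76.6, 52.1 and 50.8 CPM in CB2 KO, against 45.2, 43.95 and 43.9 CPM in WT, and Cd3g, a subunit of the T cell receptor complex, was at 25.6, 28.9 and 23.9 CPM in CB2 KO, against 9.60, 17.2 and 15.1 CPM in WT. Trbc2 did not follow them, with 116, 113 and 129.5 CPM in CB2 KO and 137, 138.5 and 128 CPM in WT, and Trac had 0, 47 and 28 counts in CB2 KO replicates 1 to 3 and 6, 0 and 22 counts in WT replicates 1 to 3. Cd3e had 64, 10 and 42 counts in CB2 KO and 17, 0 and 1 counts in WT, so the 2 libraries with Ctla4 counts were also the 2 highest for Cd3e. Foxp3, the factor of regulatory T cells, which express much CTLA-4, had 36, 111 and 23 counts in CB2 KO and 85, 87 and 75 counts in WT, and was lowest in those same 2 libraries. Of 14 macrophage and dendritic cell markers, 10 were found, and they summed to 152 to 178 CPM in CB2 KO and 14.4 to 59.2 CPM in WT. In every CB2 KO library most of that sum came from a single gene, Chil3. Chil3, a chitinase-like protein gene of macrophages, was at 143, 108 and 134.5 CPM in CB2 KO and 0.559, 8.68 and 47.5 CPM in WT, and the macrophage gene Lyz2 was at 10.4, 20.2 and 21.2 CPM in CB2 KO and 1.12, 1.27 and 2.55 CPM in WT. Csf1r, a receptor gene that marks macrophages, had 0, 116 and 111 counts in CB2 KO and 0, 30 and 0 counts in WT, and was at 0 in the library labelled as CB2 KO replicate 1, which had the most Pdcd1lg2. Chil3 and Itgax, by contrast, were highest in that library, Itgax with 7.06, 2.27 and 5.76 CPM in CB2 KO and 0, 2.05 and 0 CPM in WT. Not all listed markers followed. Cd68 overlapped, with 9.59, 12.7 and 6.57 CPM in CB2 KO and 10.4, 6.58 and 9.11 CPM in WT. Cd14 had 50 counts in WT replicate 1 and none in the other libraries. C1qb, C1qc, Mrc1 and Flt3 had counts only in CB2 KO, each in some of its libraries. Of 8 mast cell and basophil markers, 8 were found, at 54.1 to 117 CPM in CB2 KO and 25.9 to 49.4 CPM in WT. Of 6 natural killer cell markers 1 was found, Prf1, at 0 to 2.12 CPM in CB2 KO and 0 to 7.87 CPM in WT. B cell markers summed to 25.4 to 33.6 CPM in CB2 KO and 20.5 to 54.5 CPM in WT, ILC3 markers to 2.43 to 6.13 CPM in CB2 KO and 1.35 to 4.24 CPM in WT, and epithelial markers to 22.9 to 41.1 CPM in CB2 KO and 30.8 to 128 CPM in WT. Across these marker lists, 0 genes passed edgeR's test after adjustment. Tested were 5 macrophage and dendritic cell markers and 6 mast cell and basophil markers. DESeq2 called 1 of each list higher, beside 2.58% of all the genes it tested in either direction. In each list, 3 markers were higher in every CB2 KO library than in every WT library, which held for 6.88% of all tested genes. These include Itgax, with 0, 42 and 0 counts in WT, and Fcer1a, with 0, 60 and 27 counts in WT. Both passed the filter only with the help of CB2 KO libraries, so their separation cannot decide whether they differed. The markers Cd4, Cd8a, Adgre1 and C1qa were not analysed here. The part of such cells in the levels of Klrg1, Ctla4, Cd274, Pdcd1lg2, Havcr2 and Vsir was not tested.

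**Figure D4:**
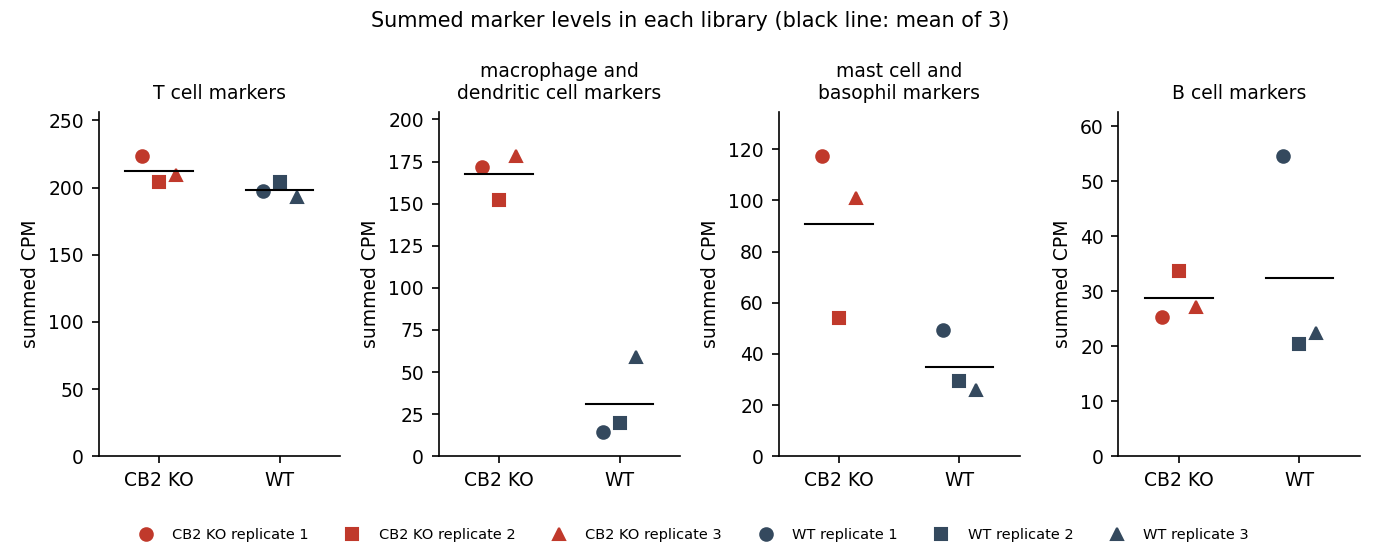
Summed CPM of the measured markers of 4 other cell types in each library (vertical axes from 0), with CB2 KO left of WT; each point is a library and the black line the mean of 3. The sums of macrophage and dendritic cell markers and of mast cell and basophil markers are higher in every CB2 KO library than in every WT library. Those of T cell and B cell markers overlap. Most of the macrophage and dendritic cell sum in CB2 KO is Chil3.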

How the data were processed

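RNA of sorted mouse lung ILC2s was measured in 3 CB2 KO and 3 WT samples, grouped by their titles. The authors deposited estimated counts per gene, made with the expectation-maximization method of Partek, as the name of the deposited table states. Tools named in the submitters' processing notes are CASAVA 1.8.2 and STAR (listed as 3.5.3), and the build is mm10. Of the values of a library, 55.6 to 58.3% lay within 0.01 of a whole number. A normalized signal, also deposited, is each count with 1 added and then divided by a library factor.

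Rounded counts went through edgeR 4.0.16 in R 4.3.3, with TMM factors, filterByExpr, glmQLFit (legacy=FALSE, robust=TRUE), glmQLFTest, Benjamini-Hochberg adjustment over 14084 genes and a threshold of 0.05. The filter removed 4394 genes. A standard error is the log2 fold change divided by the root of F. DESeq2 1.42.0 (with a local dispersion fit), limma 3.58.1 and other settings were alternatives. The workflow was tested on simulated data. Exon lengths and gene IDs came from GENCODE release M21; 17816 of 17979 matched genes had the same start and end.

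The genes and lists were chosen with earlier results of these data known. Beside the checkpoint genes, the text names Cnr2, the 2 genes of each list with the smallest p, and the nearest patterns; other names were picked after their values were seen. The deviations of same-numbered samples from their group means correlated by under 0.1 (r of 0.074, 0.031 and 0.02), so replicate numbers were not taken as pairs. Correlations over so few samples cannot exclude pairing.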

Additional observations from a re-analysis of the deposited data

How the results depend on the processing

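Of 14 alternatives, all left 0 of the 8 checkpoint genes past the threshold, with adjusted p of at least 0.0526. Of 112 fitted values of these genes under the alternatives, 106 kept their sign and 6 reversed, all with a library left out. Over those fits Tigit ran from -2.393 to 0.946 (positive without WT replicate 3). Cd274 ran from -0.39 (without CB2 KO replicate 2) to 0.893, and was -0.019 when WT replicate 2 was left out. Pdcd1lg2 ran from -0.064 (without CB2 KO replicate 1) to 0.431. Btla ran from -1.075 (without CB2 KO replicate 2) to 1.56, and was -0.287 when WT replicate 1 was left out. Moves of the log2 fold change by over 1.5 times with all libraries kept were Vsir at -3.24 by limma-voom and -2.77 on the authors' normalized signal, Havcr2 at -1.48 and -1.45 by the same methods, and Btla at 0.17 on that signal. The number of genes past the threshold over all genes was 15 (6 higher, 9 lower). It was 363 (167 higher, 196 lower) by DESeq2, 23 (11 higher) by limma on the authors' normalized signal, and 3 (1 higher, 2 lower) with the replicate block. With a library left out it ran from 3 to 8, with 1 to 2 higher and 2 to 6 lower. The replicate block changed no call of a checkpoint gene, and the labels do not say whether same-numbered samples are pairs. The cause of these differences in counts was not tested. Counts of 0 to 156 for Btla, Tigit and Ctla4 limit what can be said of them.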
